A study of Mus musculus with 12 samples.

Results

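The 34 genes described here carry out glycolysis or belong to the response to low oxygen, and were taken by name from a deposited table of 25965 gene rows. All 34 names were found once each and all 34 passed the filter on low values. Cox4i2, Ndufa4l2 and Car9 passed it only through libraries of Smchd1 del/del cells, described below. Adm also needed such libraries to pass. By role, 21 belong to glucose uptake, glycolysis and the fate of pyruvate, and 13 to oxygen sensing and the hypoxia response. RNA was sequenced from mouse embryonic stem (ES) cells of the C57BL/6 strain, labelled male, while they were differentiated towards neuromesodermal progenitors (NMPs), cells of the tail end of the embryo that give rise to spinal cord and trunk mesoderm. There were 6 groups of 2 libraries, namely Smchd1 del/del and Smchd1 fl/fl cells at day 1, day 5 and day 8. Smchd1 encodes a chromatin protein needed for silencing of the inactive X chromosome and of other gene clusters. In the del/del cells the floxed Smchd1 alleles were deleted with a retrovirus, MSCV-Cre-puro, followed by puromycin selection, and the fl/fl cells were the untransduced part of the same lines. The controls were neither transduced nor selected, so effects of the deletion and of these treatments cannot be told apart. Lines came from single blastocysts in 2i+LIF medium, were moved to serum+LIF, and were differentiated by taking away LIF and adding Fgf2, then an inhibitor of Gsk3, then Gdf11. The first sampling is day 1 in the sample names and day 0, undifferentiated, in the protocol, and is called day 1 here. In each group replicate 1 is line 1 and replicate 2 is line 3, each from 1 embryo, so only 2 lines stand behind every comparison. The p-values rest on the spread between the 2 libraries of a group, pooled over the 6 groups. The main test did not pair libraries of the same line.

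Glycolysis breaks glucose down to pyruvate, which is either turned into lactate or passed to the mitochondria. When oxygen is short, the prolyl hydroxylases that mark the alpha subunits of the hypoxia-inducible factors (HIF) for destruction slow down, HIF accumulates, and it switches on genes for glucose uptake, glycolytic enzymes, blood vessel growth and altered mitochondrial subunits. Pluripotent cells are known for a high rate of glycolysis, and the balance between glycolysis and respiration is known to shift as they differentiate and along the presomitic mesoderm of the embryo.

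The labels were checked against the targeted gene and marker genes. Smchd1 had 102 to 271 reads in the del/del libraries and 111 to 1495 in the fl/fl libraries, and its level, in log2 RPM (reads of the gene for every M reads in the library's denominator, M being the SI mega) and rescaled so that the median gene is alike in all libraries, was 1.83 to 2.59 in del/del and 4.00 to 5.37 in fl/fl cells. The summed level of 10 naive pluripotency markers was 114 to 143 in del/del and 128 to 144 in fl/fl cells at day 1, and 44.8 to 55.5 in del/del and 58.7 to 59.2 in fl/fl cells at day 8 (rescaled RPM). The summed level of 10 NMP markers was highest at day 5, with 109 to 161 in del/del and 95.0 to 130 in fl/fl cells. Libraries held 1.51 M to 8.67 M gene reads, and the shallowest by far was fl/fl day 8 replicate 2. On the deposited scale the median gene differed between del/del and fl/fl cells by a log2 of 0.15 at day 1, -0.40 at day 5 and 0.90 at day 8, so levels and differences below are relative to the median gene. In bulk RNA, fewer cells of a type and less RNA per cell cannot be told apart.

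Many genes of the hypoxia response carry a HIF binding site near their start, whose core is ACGTG or GCGTG. The 250 bases before the RefSeq start (GRCm38.p6) were searched for either core on both strands, where the other strand reads CACGT or CACGC. The first core also lies within the E-box CACGTG, which other factors bind. An entry existed for 31 of the 34 members, and 25 of them (80.6%) held a core, as did 12679 of all 32851 promoters (38.6%). The members' windows held a median of 14 CG dinucleotides and all windows a median of 6, and both cores contain CG. Of the 8 members called at day 8 that had an entry, 6 held a core (75.0%), and of the 23 not called, 19 did (82.6%). The windows are shown for the 4 called members with the largest day 8 differences among those with an entry, and for Ndufa4, the common paralog of the member Ndufa4l2. They are chr4:119108495-119108744 for Slc2a1, chr11:78322823-78323072 for Aldoc, chr2:71872974-71873223 for Pdk1 and chr7:110627407-110627656 for Adm, all on the plus strand, and chr6:11907451-11907700 on the minus strand for Ndufa4. Each reads 5′ to 3′ up to the base before the start, with cores on either strand in capitals.
Slc2a1: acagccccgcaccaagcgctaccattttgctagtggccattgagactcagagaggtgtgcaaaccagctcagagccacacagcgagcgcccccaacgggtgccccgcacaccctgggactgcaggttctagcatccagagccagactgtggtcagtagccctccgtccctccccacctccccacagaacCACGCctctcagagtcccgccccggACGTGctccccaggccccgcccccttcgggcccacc
Aldoc: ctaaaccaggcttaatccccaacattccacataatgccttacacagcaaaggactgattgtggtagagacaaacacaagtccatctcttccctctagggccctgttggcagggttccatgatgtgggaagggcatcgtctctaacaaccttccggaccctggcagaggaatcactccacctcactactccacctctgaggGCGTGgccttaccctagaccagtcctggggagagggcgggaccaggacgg
Pdk1: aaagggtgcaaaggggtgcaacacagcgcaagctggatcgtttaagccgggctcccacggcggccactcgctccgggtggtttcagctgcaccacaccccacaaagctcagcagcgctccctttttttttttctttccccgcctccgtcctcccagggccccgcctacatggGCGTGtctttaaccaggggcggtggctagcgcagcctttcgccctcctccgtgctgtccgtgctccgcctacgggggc
Adm: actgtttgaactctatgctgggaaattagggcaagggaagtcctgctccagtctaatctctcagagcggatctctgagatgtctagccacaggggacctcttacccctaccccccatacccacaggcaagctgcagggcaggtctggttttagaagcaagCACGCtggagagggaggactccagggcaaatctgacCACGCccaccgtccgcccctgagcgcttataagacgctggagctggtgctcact
Ndufa4: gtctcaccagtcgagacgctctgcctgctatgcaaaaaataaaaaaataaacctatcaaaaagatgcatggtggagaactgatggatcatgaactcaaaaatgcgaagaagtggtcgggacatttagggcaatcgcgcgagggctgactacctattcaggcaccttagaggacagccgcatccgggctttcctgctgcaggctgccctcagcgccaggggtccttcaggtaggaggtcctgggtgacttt
The cores began 61 and 36 bases before the start in Slc2a1, 50 bases before it in Aldoc, 78 in Pdk1, and 90 and 54 in Adm. Ndufa4 held 0 cores in this window. A match is a string of letters and not a measured binding site. Cox4i2, Ndufa4l2 and Cox4i1 are named only.

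Per kilobase of exon, the glucose transporter Slc2a1 and the enzymes Pkm, Aldoa and Ldha were the most abundant members at day 1. Slc2a1 averaged 26.0 in del/del and 28.9 in fl/fl cells, Pkm 22.3 and 25.2, Aldoa 20.4 and 23.2, and Ldha 18.3 and 20.2, each given for del/del and then fl/fl cells (rescaled RPM per kilobase, n = 2 each). The lowest was Car9, a carbonic anhydrase of the cell surface, at 0.0525 in del/del and 0.0255 in fl/fl cells. Gapdh, the enzyme often used as a reference for RNA levels, averaged only 1.10 in del/del and 1.11 in fl/fl cells on this scale. Of the 50-base stretches of its transcripts, 82.5% were also found in transcripts of other genes, 222 in number. The sources used here do not state how reads that match several genes were counted, and its part in the low Gapdh value was not tested. Other members with a large share of such stretches were Eno1 (72.2%), Pgk1 (68.0%), Bnip3 (62.5%), Pgam1 (41.5%) and Pkm (34.4%), and their values are uncertain to that extent.

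At day 8 the hypoxia response genes and the glycolysis genes did not move as one block. Among the 13 hypoxia response members, 4 were higher in del/del cells (Cox4i2, Ndufa4l2, Adm and Vegfa) and 1 was lower (Ero1l, which stood at 0.02 on the deposited scale), with a median difference of 0.91. Among the 21 glycolysis members, 3 were higher (Aldoc, Pdk1 and Pfkm) and 2 were lower (Slc2a1 and Hk1, which stood at -0.12 and 0.24 on the deposited scale), with a median of -0.28, against 0.02 for all 14063 tested genes (log2, del/del minus fl/fl). Calls were made with limma at a Benjamini-Hochberg adjusted p under 0.05 over all tested genes, of which 7.95% were called higher and 7.05% lower at this day. With 7 higher and 3 lower, the members' shares lie above the background for higher and near it for lower, and no test of the list was made. Cox4i2 and Ndufa4l2 passed the filter on low values only through del/del libraries, where they are high. Adm also needed the del/del day 8 libraries to pass, since fl/fl day 8 replicate 1 was the only fl/fl library above the filter value. The calls of Cox4i2, Ndufa4l2 and Adm therefore add no separate support to the share of higher members. Both del/del libraries lay above both fl/fl libraries for 8 of 13 hypoxia response and 6 of 21 glycolysis members, a pattern shown by 32.1% of all tested genes. Both lay below for 3 and 9 of them, against 30.9% of all tested genes.

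**Figure D1:**
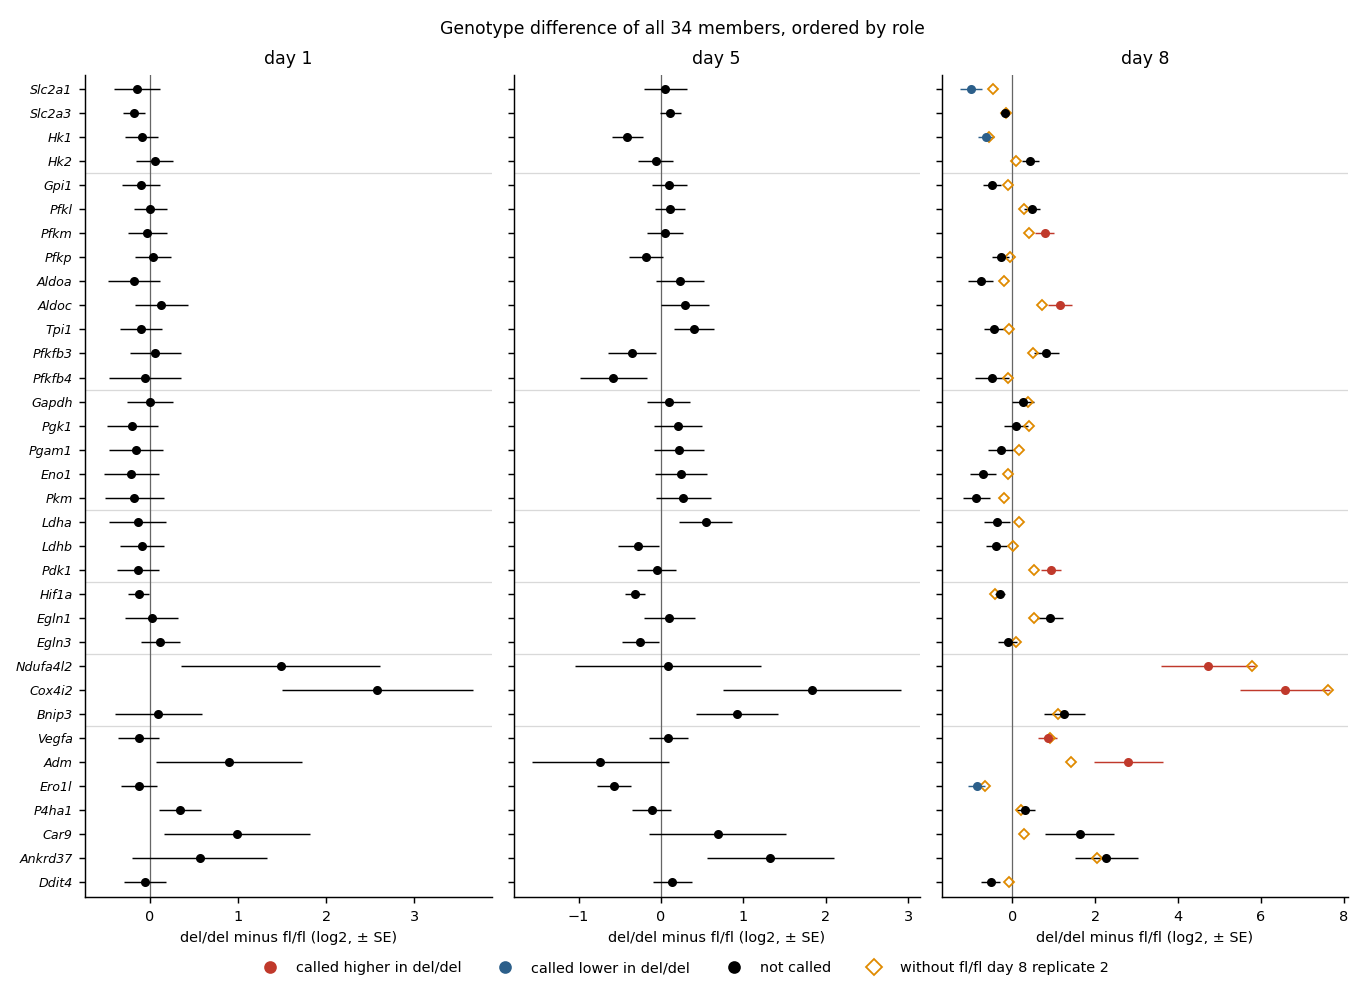
Difference between del/del and fl/fl cells of the 34 members, in rows ordered by role from glucose uptake (top) to the hypoxia response (bottom), at day 1, day 5 and day 8 (log2 of rescaled RPM with its standard error, limma, 2 libraries per group, axes differ between panels). Red and blue points passed the test, and open diamonds give the day 8 difference without fl/fl day 8 replicate 2. At day 8, 7 members lie to the right of 0 and 3 to the left among those called, Cox4i2 being the farthest at 6.58.

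These day 8 calls lean on single libraries and settings. Without fl/fl day 8 replicate 2, the shallowest library, Cox4i2 alone stayed called (7.63, adjusted p = 0.0310 by limma), while 2.13% of all tested genes were called in either direction. The other called members then differed by 5.78 (Ndufa4l2), 1.41 (Adm), 0.91 (Vegfa), 0.72 (Aldoc), 0.51 (Pdk1), 0.41 (Pfkm), -0.47 (Slc2a1), -0.55 (Hk1) and -0.67 (Ero1l), with an adjusted p of 0.0541 to 0.254. The medians were then 0.52 for the hypoxia response and 0.01 for the glycolysis members. Without fl/fl day 8 replicate 1, 21 members and 33.1% of all tested genes were called. Without del/del day 8 replicate 1 it was 3 members and 5.29% of genes, and without del/del day 8 replicate 2 it was 0 members and 0.391% of genes. Before rescaling, on the deposited values, 13 members were called higher and 0 lower, and 22.9% of all tested genes were called higher. A fit of the recovered reads with voom, limma's method for reads, called 3 members higher and 3 lower, losing Adm, Pdk1, Aldoc and Pfkm at an adjusted p of 0.0526 to 0.0736. With no filter on low values the calls of Hk1 and Ero1l were lost (adjusted p = 0.284 and 0.118).

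The largest differences were in subunits of the mitochondrial respiratory chain that cells make under low oxygen. Cox4i2 (chr2:152754173-152765037) encodes the hypoxia-inducible isoform of subunit 4 of cytochrome c oxidase. It had 221 and 269 reads in del/del day 8 libraries, against 0 and 0 reads in fl/fl day 8 libraries. The groups did not overlap, and the level was at least 73.5-fold higher in del/del cells, taking 3 reads over the fl/fl group as the floor (fitted log2 difference 6.58 ± 1.09 SE, limma adjusted p = 0.00869). Ndufa4l2 (chr10:127514939-127517152), a HIF-induced relative of the respiratory chain subunit Ndufa4, had 44 and 104 reads in del/del and 0 and 0 reads in fl/fl cells at day 8. It too did not overlap and was at least 22.2-fold higher (fitted 4.73 ± 1.13, adjusted p = 0.0245). Both fitted values depend on the value entered for 0 reads. Bnip3, a receptor for the removal of mitochondria, stood at 3.57 and 4.01 in del/del and 2.69 and 2.38 in fl/fl cells at day 8 (rescaled log2 RPM). These groups did not overlap either, but the difference of 1.25 ± 0.49 missed the threshold (adjusted p = 0.103).

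**Figure D2:**
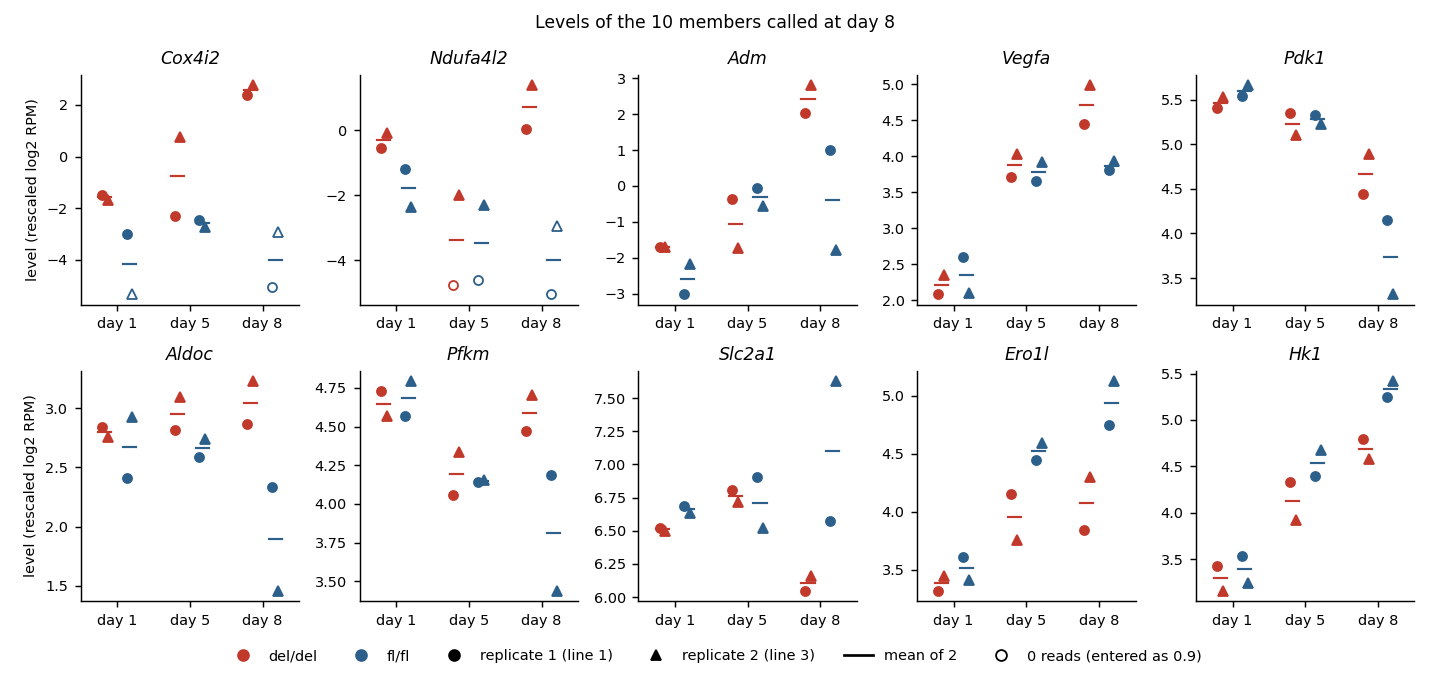
Level of the 10 members called at day 8 in each of the 12 libraries (rescaled log2 RPM, axes differ between panels and do not start at 0), with del/del left of fl/fl at each day, circles for replicate 1 (line 1), triangles for replicate 2 (line 3), bars for the mean of 2 and open symbols for 0 reads. Cox4i2 and Ndufa4l2 have 0 reads in both fl/fl day 8 libraries, and in Adm, Aldoc, Pdk1, Pfkm and Slc2a1 the fl/fl day 8 replicate 2 library lies farther from the del/del libraries than replicate 1 does.

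Secreted factors of the hypoxia response were also higher in del/del cells at day 8. Adm (chr7:110627669-110629819) encodes adrenomedullin, a peptide that widens vessels, and had 171 and 276 reads in del/del and 60 and 2 reads in fl/fl cells. The levels were 2.02 and 2.81 in del/del cells, and 1.01 and -1.79 in fl/fl cells (rescaled log2 RPM). The groups did not overlap, and the fl/fl library with 2 reads, replicate 2, lay far below the other. The difference was 2.80 ± 0.83 (limma adjusted p = 0.0454, and 0.0547 with a replicate block), and 1.41 ± 0.68 without that library (adjusted p = 0.254). Vegfa (chr17:46016993-46032377), the main growth factor for blood vessels, stood at 4.44 and 4.99 in del/del and 3.81 and 3.92 in fl/fl cells. Again the groups did not overlap, and Vegfa was 1.80-fold higher (0.85 ± 0.24, limma adjusted p = 0.0374). Its difference without fl/fl day 8 replicate 2 was as large, 0.91 ± 0.29, though not called (adjusted p = 0.112).

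Other hypoxia response genes were lower or did not pass the test. Ero1l (chr14:45283092-45318572), which helps to form disulphide bonds in the endoplasmic reticulum, stood at 3.84 and 4.30 in del/del and 4.74 and 5.12 in fl/fl cells at day 8 (rescaled log2 RPM). Both del/del libraries were below both fl/fl libraries, and Ero1l fell by 0.86 ± 0.20 (limma adjusted p = 0.0239), though on the deposited scale its difference was 0.02. Hif1a, the regulated subunit of HIF itself, was not called, with 5.28 and 5.23 in del/del and 5.67 and 5.42 in fl/fl cells at day 8 (-0.29 ± 0.12, adjusted p = 0.121). The groups did not overlap, though on the deposited scale the Hif1a difference was 0.59 and not called (limma adjusted p = 0.207). The HIF prolyl hydroxylase Egln1 differed by 0.91 ± 0.31 (adjusted p = 0.0659) and its relative Egln3 by -0.12 ± 0.22. The remaining members, none called, ran from -0.53 ± 0.24 for the mTORC1 inhibitor Ddit4 over 0.32 ± 0.24 for the collagen prolyl hydroxylase P4ha1 and 1.62 ± 0.83 for Car9 to 2.27 ± 0.77 for Ankrd37, an ankyrin repeat gene (adjusted p = 0.0675 to 0.355 by limma). Of Ankrd37's exon bases, 26.4% overlap Lrp2bp and Ufsp2 on the other strand, and the sources used here do not state whether strand was used in counting.

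Of the glucose transporters and hexokinases, Slc2a1 and Hk1 were lower in del/del cells at day 8 relative to the median gene. Slc2a1 (chr4:119108711-119137330), the transporter GLUT1, stood at 6.05 and 6.16 in del/del and 6.57 and 7.63 in fl/fl cells (rescaled log2 RPM). The groups did not overlap, but fl/fl replicate 2 lay well above replicate 1. Slc2a1 fell by 1.00 ± 0.26 (limma adjusted p = 0.0324), by 0.62 once a trend with read density was removed, and without that library the difference was -0.47 ± 0.15 (adjusted p = 0.117). On the deposited scale it was -0.12 ± 0.25 and not called (adjusted p = 0.707). Hk1 (chr10:62268855-62379908), a hexokinase found in most tissues, stood at 4.80 and 4.58 in del/del and 5.25 and 5.42 in fl/fl cells. It did not overlap and fell by 0.64 ± 0.19 (adjusted p = 0.0452, and 0.0531 with a replicate block), though on the deposited scale its difference was 0.24. Hk2, the hexokinase of muscle and of highly glycolytic cells, differed by 0.44 ± 0.21 and the transporter Slc2a3 by -0.18 ± 0.13, neither called.

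In the upper steps of glycolysis Aldoc and Pfkm were higher in del/del cells at day 8, and no other member of these steps was called. Aldoc (chr11:78322968-78327781), an aldolase known from brain, stood at 2.87 and 3.23 in del/del and 2.33 and 1.46 in fl/fl cells (rescaled log2 RPM). The groups did not overlap, fl/fl replicate 2 was the lowest, and Aldoc was 2.22-fold higher (1.15 ± 0.30, limma adjusted p = 0.0301). Pfkm (chr15:98092589-98132447), the muscle phosphofructokinase, stood at 4.47 and 4.70 in del/del and 4.18 and 3.44 in fl/fl cells. It was 1.71-fold higher with no overlap (0.78 ± 0.22, adjusted p = 0.0401, and 0.0567 with a replicate block). Aldoa, the aldolase of most tissues, differed by -0.77 ± 0.29 (adjusted p = 0.0922), the liver phosphofructokinase Pfkl by 0.48 ± 0.18 (adjusted p = 0.0965) and Pfkfb3, which makes an activator of phosphofructokinase, by 0.82 ± 0.29 (adjusted p = 0.0766). Gpi1, Pfkp, Tpi1 and Pfkfb4, not called, lay between -0.50 and -0.28.

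None of the 5 members for the lower steps was called at day 8. Pyruvate kinase Pkm differed by -0.87 ± 0.33 (limma adjusted p = 0.0957), the enolase Eno1 by -0.71 ± 0.31, and Pgam1, Pgk1 and Gapdh by -0.28 to 0.25. Gapdh stood at 1.41 and 1.46 in del/del and 1.06 and 1.30 in fl/fl cells at day 8 (rescaled log2 RPM), which was 17 reads in the shallowest library. Pdk1 (chr2:71873224-71903858) encodes a kinase that inhibits pyruvate dehydrogenase in the mitochondria. It stood at 4.44 and 4.89 in del/del and 4.15 and 3.32 in fl/fl cells at day 8. The groups did not overlap, and Pdk1 was 1.90-fold higher in del/del cells (0.93 ± 0.24, adjusted p = 0.0302), but 0.51 ± 0.19 without fl/fl replicate 2 (adjusted p = 0.155). The lactate dehydrogenase genes Ldha and Ldhb differed by -0.37 ± 0.32 and -0.39 ± 0.25, neither called.

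The members took unequal shares of the reads of the shallow library. Over all genes, fl/fl day 8 replicate 2 held 25.3% as many reads as replicate 1. Its share was 58.9% for Pkm, 53.0% for Eno1, 50.3% for Aldoa, 48.2% for Slc2a1 and 47.9% for Ldha. In contrast it was 13.0% for Pdk1, 12.7% for Aldoc, 13.8% for Pfkm, 14.1% for Hk2, 13.6% for Egln1 and 3.33% for Adm. Exon lengths were found for 12688 of the tested genes. Over these the share was 56.4% in the 21 genes below 0.001 mean reads per exon base, 26.0% at 0.001 to 0.01, 21.5% at 0.01 to 0.1, 23.8% at 0.1 to 0.3, 30.7% at 0.3 to 1 and 41.9% in the 60 genes above 1. It was thus lowest at middling density. With the trend with read density removed, 7 members were still called higher and 3 lower at day 8. Without this library Pkm, Aldoa and Eno1 differed between del/del and fl/fl cells by -0.19, -0.21 and -0.11, smaller than the values with it. In this library 10.1% of the denominator fell in genes, against 14.3% to 27.8% in the others. It had 10206 genes at 0 reads, against 6894 to 8477 in the others. Its deposited label alone ends in "merge", which the sources used here do not explain. What sets the library apart was not tested.

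**Figure D3:**
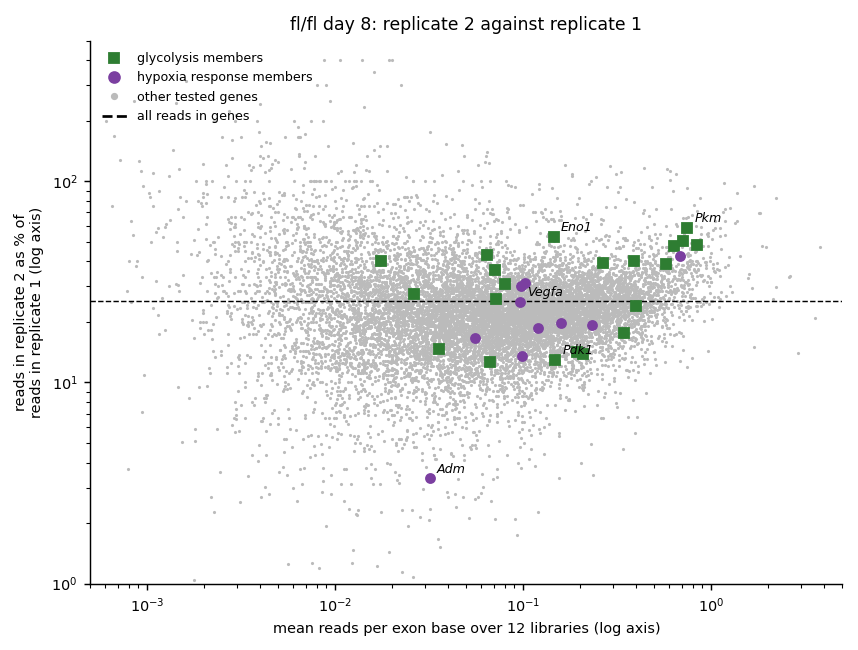
Reads of each gene in fl/fl day 8 replicate 2 as a percent of its reads in replicate 1, against its mean reads per exon base over the 12 libraries (both axes logarithmic). Green squares are glycolysis members, purple circles hypoxia response members, and grey points other tested genes with an exon length and reads in both. The dashed line is the value over all genes, 25.3%. Cox4i2, Ndufa4l2 and Car9, with 0 reads in replicate 2, are not drawn. Pkm and Eno1 lie above the line at 58.9% and 53.0%, Pdk1 and Adm below it at 13.0% and 3.33%.

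Markers of other cell types moved with genotype at day 8 as well. The summed level of 10 fibroblast markers was 484 to 616 in del/del and 77.4 to 269 in fl/fl cells (rescaled RPM), with 3 of 10 tested markers called higher and 0 lower by limma and none at 0 reads. Of all tested genes, 7.95% were called higher and 7.05% lower at this day. Cox4i2 and Ndufa4l2 are known from pericytes and smooth muscle of vessels. Of that list, 3 of 9 tested markers were called higher (Rgs5 at 4.44, Pdgfrb at 2.76 and Notch3 at 0.64) and 1 lower (Kcnj8, -3.95). Rgs5 passed the filter on low values only through del/del day 8 libraries, where it is high, so its call adds no separate support. The summed level of this list was 219 to 252 in del/del and 200 to 247 in fl/fl cells, and Higd1b and Vtn had 0 reads in both. Tagln, Acta2 and Notch3 were the largest parts of that sum, which says little of the other markers. Tagln stood at 5.95 and 6.00 in del/del and 6.19 and 7.56 in fl/fl cells (rescaled log2 RPM). The summed endothelial level was 3.38 to 8.78 in del/del and 20.3 to 33.3 in fl/fl cells (1 of 6 tested called lower, 0 higher; Emcn at 0 reads in del/del). That of extraembryonic endoderm was 389 to 525 in del/del and 805 to 1211 in fl/fl cells (3 of 9 lower, 0 higher; Ttr at 0 reads in del/del), and that of trophoblast 90.5 to 132 in del/del and 250 to 628 in fl/fl cells (7 of 11 lower, 0 higher; Elf5 at 0 reads in del/del). Col4a1, Lamb1 and Sparc made up most of the extraembryonic endoderm sums. In fl/fl cells the shallow replicate 2 gave the lowest fibroblast sum, 77.4, and the highest sum of each other list here. The marker calls were made with that library included and lean on it too. The part of these cells in the results for the members was not tested.

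Before differentiation and at day 5 no member was called between the genotypes. At day 1 limma called 0 of 34 members (1 at an unadjusted p under 0.05), against 0.00711% of all tested genes, and voom also called 0 (0 unadjusted). Cox4i2 was the member with the largest difference, 14 and 14 reads in del/del against 4 and 0 reads in fl/fl cells (2.58 ± 1.09, adjusted p = 1.00). At day 5 limma again called 0 members (2 unadjusted) against 0.00711% of all tested genes, and voom 0. Averaged over the 3 days 0 members were called by limma (10 unadjusted) and 0 by voom (9 unadjusted), against 0.107% of all tested genes by limma. Cox4i2 came nearest, at 3.66 ± 0.63 (adjusted p = 0.0514). A change of the genotype difference between days was called for 0 members by limma and by voom, from day 1 to day 5 (0 unadjusted; 0% of all tested genes) and from day 5 to day 8 (11 unadjusted; 0.00711%), so the day 8 differences are not shown to differ from those at day 5. Without fl/fl day 8 replicate 1, 14 members were called for the change from day 5 to day 8 (15.5% of all tested genes) and 16 in the mean over days (19% of all tested genes).

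At day 5, del/del replicate 2 (line 3) was the highest library for several hypoxia genes and for several, though not all, NMP markers. Bnip3 was at 1.71 and 3.81 in del/del and 1.86 and 1.81 in fl/fl cells, Ankrd37 at -1.03 and 1.44 in del/del and -2.14 and -0.10 in fl/fl cells, and Cox4i2 at -2.29 and 0.77 in del/del and -2.46 and -2.72 in fl/fl cells (rescaled log2 RPM). In each, replicate 2 of del/del was the highest. Ldha, at 6.08 and 6.86 in del/del and 6.21 and 5.64 in fl/fl cells, and Egln1, at 2.97 and 3.72 in del/del and 3.39 and 3.09 in fl/fl cells, also had it highest. The hypoxia members Adm, at -0.36 and -1.73 in del/del and -0.07 and -0.55 in fl/fl cells, and Ero1l, at 4.15 and 3.75 in del/del and 4.45 and 4.59 in fl/fl cells, were lowest in it. Of the NMP markers, Tbx6 was at 1.12 and 4.09 in del/del and 2.90 and 1.01 in fl/fl cells, Cdx4 at 2.25 and 4.04 in del/del and 2.85 and 2.33 in fl/fl cells, and Fgf8 at 1.39 and 3.07 in del/del and 1.32 and 0.80 in fl/fl cells. T, Nkx1-2, Cdx2 and Evx1 were also highest in it, and Cdx1 and Wnt3a were not. Sox2 was lowest in it, at 4.10 and 3.47 in del/del and 4.09 and 3.95 in fl/fl cells. The part of these markers in the values of the members was not tested. That library was the highest of the 4 at day 5 for 16 of 34 members, 10 of glycolysis and 6 of the hypoxia response, against 35.3% of all tested genes. The genes in this paragraph other than Cox4i2 and Ankrd37 were picked after their values were seen, and 1 library cannot be tested against its own group.

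Changes over time were compared within each genotype. From day 1 to day 5, 6 members rose and 2 fell in del/del cells, where 21.2% and 18.3% of all tested genes rose and fell. In fl/fl cells 8 rose and 5 fell, where 23% and 17.9% of all tested genes did. The members' shares were near or below these backgrounds. From day 5 to day 8, 5 rose and 1 fell in del/del cells (7.24% and 4.67% of all tested genes), and 2 rose and 2 fell in fl/fl cells (3.15% and 3.58%). The median gene itself moved by -0.88 on the deposited scale from day 1 to day 5 in del/del cells, and there 0 members rose and 11 fell, against 5.87% and 35% of all tested genes. On that scale 1 rose and 2 fell in fl/fl cells (8.68% and 10.2% of all tested genes). From day 5 to day 8, 6 rose and 0 fell in del/del cells (7.79% and 0.363%), and 0 rose and 1 fell in fl/fl cells (1.08% of all tested genes fell and 0.171% rose). The calls kept on that scale were those of Hk2 in both genotypes, Egln3 in del/del and Pfkfb4 and Ankrd37 in fl/fl cells to day 5, and those of Vegfa, Egln1, P4ha1, Adm and Ndufa4l2 in del/del and Pdk1 in fl/fl cells to day 8. Of the 31 calls over time, 15 held when any 1 of the 12 libraries was left out: those of Hk2, Vegfa, P4ha1, Pfkfb4 and Slc2a3 to day 5 in both genotypes, of Egln3 to day 5 and of P4ha1 and Slc2a3 to day 8 in del/del cells, and of Hk1 and Ero1l to day 5 in fl/fl cells. The other 16, named below, were lost without at least 1 library.

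**Figure D4:**
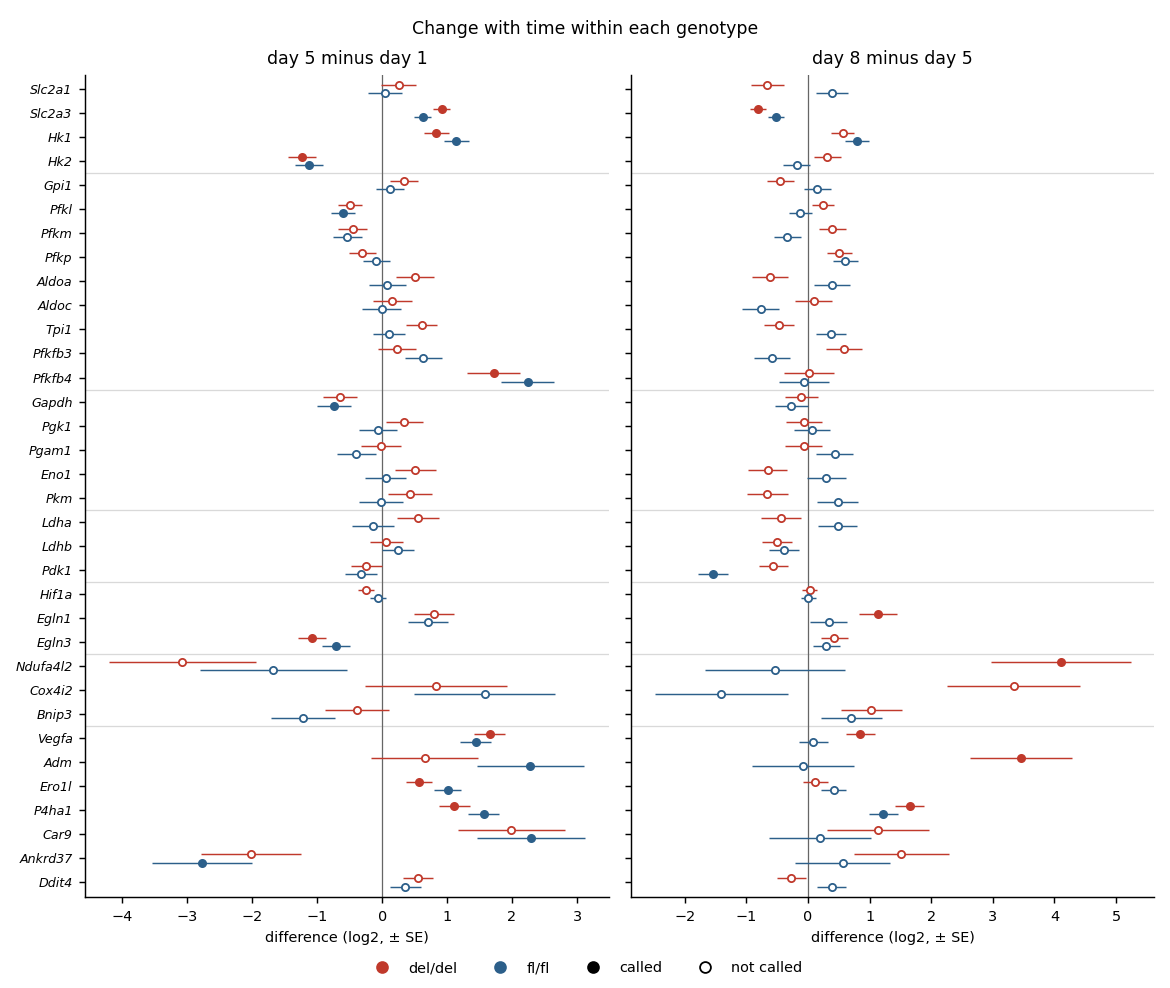
Change of the 34 members from day 1 to day 5 (left) and from day 5 to day 8 (right) in del/del (red) and fl/fl cells (blue), as the later minus the earlier day (log2 of rescaled RPM with its standard error, limma, 2 libraries per group), in rows ordered by role. Filled points passed the test, and between day 1 and day 5 these include Hk2 to the left and Hk1, Vegfa, P4ha1, Pfkfb4 and Slc2a3 to the right in both genotypes, of which Hk1 in del/del cells lay at -0.07 on the deposited scale.

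By day 5 the cells had less Hk2 and more Hk1 relative to the median gene. Hk2 fell by 1.23 ± 0.21 in del/del and by 1.12 ± 0.21 in fl/fl cells (limma adjusted p = 0.00114 and 0.00197). Hk1 rose by 0.83 ± 0.19 in del/del and 1.14 ± 0.19 in fl/fl cells (adjusted p = 0.00540 and 0.000842; in del/del cells 0.0546 without del/del day 1 replicate 2), although on the deposited scale its change in del/del cells was -0.07. The log2 ratio of Hk2 to Hk1 reads per exon base was 2.64 to 3.14 over the 4 libraries of day 1, and 0.50 to 1.14 over those of day 5. At day 8 it was 0.42 and 0.90 in del/del and 0.03 and -0.86 in fl/fl cells.

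**Figure D5:**
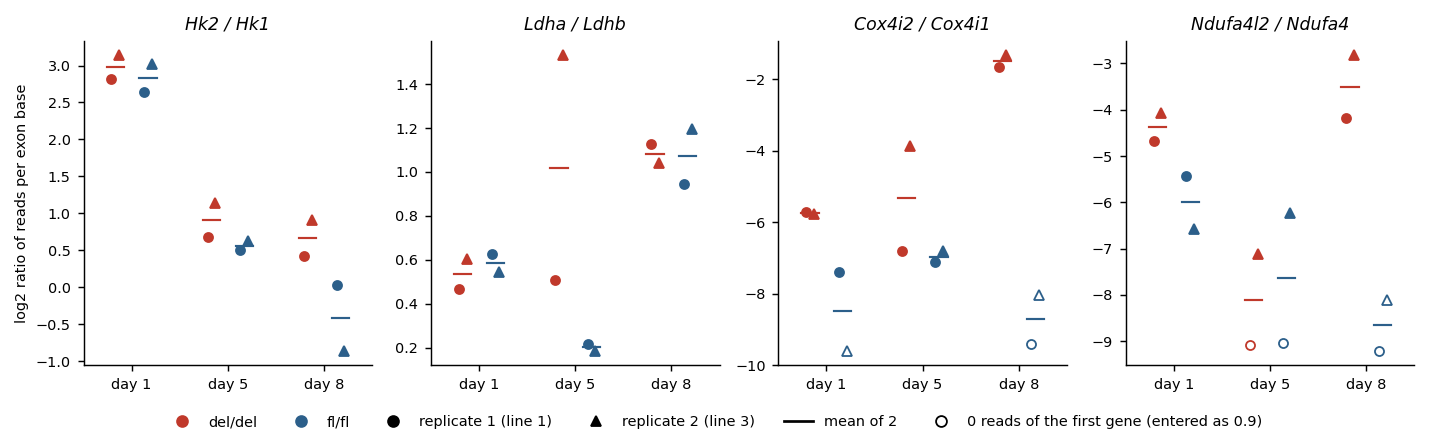
Log2 ratio of reads per exon base of 4 pairs of related genes in each library by day, with del/del (red) left of fl/fl (blue), circles for replicate 1, triangles for replicate 2, bars for the mean of 2 and open symbols where the first gene had 0 reads. Hk2 over Hk1 is 2.64 to 3.14 at day 1 and at most 1.14 later, and Cox4i2 over Cox4i1 is -1.66 and -1.33 in del/del cells at day 8 and -3.86 or lower in every other library.

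Vegfa, the collagen hydroxylase gene P4ha1, Pfkfb4, Ero1l and Slc2a3 rose from day 1 to day 5 in both genotypes relative to the median gene. On the deposited scale the changes in del/del cells were 0.75 for Vegfa, 0.20 for P4ha1, 0.81 for Pfkfb4, 0.01 for Slc2a3 and -0.34 for Ero1l, none of them called (limma adjusted p = 0.186 to 0.974). In fl/fl cells they were 1.06, 1.19, 1.87, 0.25 and 0.63 in the same order, and Pfkfb4 alone was called (adjusted p = 0.0266). Vegfa stood at 2.08 and 2.35 in del/del and 2.59 and 2.10 in fl/fl cells at day 1, and at 3.72 and 4.03 in del/del and 3.65 and 3.92 in fl/fl cells at day 5 (rescaled log2 RPM). All 4 day 5 libraries lay above all 4 day 1 libraries. The rise was 1.66 ± 0.24 in del/del and 1.44 ± 0.24 in fl/fl cells (limma adjusted p = 0.000328 and 0.000786). P4ha1 stood at 2.72 and 2.79 in del/del and 2.25 and 2.58 in fl/fl cells at day 1, at 3.87 and 3.87 in del/del and 3.64 and 4.32 in fl/fl cells at day 5, and at 5.27 and 5.77 in del/del and 5.32 and 5.09 in fl/fl cells at day 8. It rose at both steps in both genotypes, by 1.11 and 1.65 in del/del and by 1.56 and 1.22 in fl/fl cells (adjusted p = 0.000478 to 0.0161). The day 5 call of Ero1l in del/del cells was lost with a replicate block (adjusted p = 0.0572) and without del/del day 5 replicate 1, among others (0.36, adjusted p = 0.229). The rise of P4ha1 to day 8 in fl/fl cells was 0.88 and not called without fl/fl day 5 replicate 1 (adjusted p = 0.154).

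The HIF hydroxylase Egln3 and, of the hypoxia targets, Ankrd37 went the other way from day 1 to day 5. Egln3 fell by 1.08 ± 0.22 in del/del and by 0.71 ± 0.22 in fl/fl cells (limma adjusted p = 0.00309 and 0.0255). Ankrd37 stood at 2.00 and 2.44 in del/del and 1.49 and 1.83 in fl/fl cells at day 1, and at -1.03 and 1.44 in del/del and -2.14 and -0.10 in fl/fl cells at day 5 (rescaled log2 RPM). Within each genotype the days did not overlap, but the day 5 libraries lay 2.47 apart in del/del and 2.04 apart in fl/fl cells. Ankrd37 fell by 2.78 ± 0.77 in fl/fl cells (adjusted p = 0.0147), a change of -1.76 without fl/fl day 5 replicate 1 (adjusted p = 0.134), and its change in del/del cells was -2.01 ± 0.77 (adjusted p = 0.0587). In fl/fl cells Pfkl fell by 0.60 ± 0.18 and Gapdh by 0.74 ± 0.26 (adjusted p = 0.0226 and 0.0430). These 2 calls and that of Egln3 in fl/fl cells were each lost without any 1 of the 4 fl/fl libraries of the comparison (adjusted p = 0.0551 to 0.227). In del/del cells these changes were -0.50 and -0.65, not called. Gapdh stood at 2.21 and 2.17 in del/del and 2.05 and 2.32 in fl/fl cells at day 1, and at 1.41 and 1.66 in del/del and 1.27 and 1.62 in fl/fl cells at day 5.

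Members with few reads had large changes on the log2 scale. Car9 had 6 and 4 reads in del/del and 2 and 2 in fl/fl cells at day 1, 13 and 8 in del/del and 6 and 12 in fl/fl cells at day 5, and 36 and 48 in del/del and 25 and 0 in fl/fl cells at day 8. Its rise to day 5 was called in fl/fl cells (2.29 ± 0.83, limma adjusted p = 0.0464) but not by voom (adjusted p = 0.110). Limma did not call it with no filter on low values, with 0.5 reads entered for 0, or with the read density trend removed (adjusted p = 0.0746 to 0.106). Adm had 12 and 14 reads in del/del and 4 and 8 in fl/fl cells at day 1, and 19 and 6 in del/del and 21 and 27 in fl/fl cells at day 5. It rose by 2.28 ± 0.83 in fl/fl cells at that step (adjusted p = 0.0474, and 0.0527 with a replicate block), and in del/del cells it rose by 3.46 ± 0.83 from day 5 to day 8 (adjusted p = 0.0232, and 0.174 without del/del day 8 replicate 2). The day 5 calls of Car9 and Adm in fl/fl cells were lost without any 1 of the 4 libraries compared. Over all 12 single omissions the Car9 call held in 2 and the Adm call in 4, with rises of 2.20 to 2.37 and 1.86 to 2.69. That call of Adm was also lost with no filter on low values and with the read density trend removed (limma adjusted p = 0.106 and 0.0504), and by voom (adjusted p = 0.0858). Ndufa4l2 had 27 and 43 reads in del/del and 14 and 7 in fl/fl cells at day 1, and 0 and 5 in del/del and 0 and 8 in fl/fl cells at day 5. Its change to day 5 was not called (-3.07 ± 1.13 in del/del and -1.67 ± 1.13 in fl/fl cells), and its rise to day 8 in del/del cells, fitted at 4.11 ± 1.13 (adjusted p = 0.0395), was lost when 0.5 reads were entered for 0 (adjusted p = 0.0557) and was 2.73 without del/del day 5 replicate 1 (adjusted p = 0.159). Cox4i2 had 5 and 34 reads in del/del and 4 and 6 in fl/fl cells at day 5, and its change to day 8 was 3.34 ± 1.09 in del/del (adjusted p = 0.0703) and -1.41 ± 1.09 in fl/fl cells (adjusted p = 0.452).

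From day 5 to day 8 the transporter Slc2a3 fell in both genotypes, relative to the median gene, and Pdk1 fell in fl/fl cells. Slc2a3 fell by 0.82 ± 0.13 in del/del and by 0.52 ± 0.13 in fl/fl cells (limma adjusted p = 0.00348 and 0.0389; in fl/fl cells 0.0525 with a replicate block and 0.256 without fl/fl day 5 replicate 1). On the deposited scale its changes were -0.12 in del/del and -1.08 in fl/fl cells, neither called (adjusted p = 0.765 and 0.0690), and with no filter on low values neither was called (adjusted p = 0.0516 and 0.0689). Pdk1 stood at 5.41 and 5.53 in del/del and 5.54 and 5.67 in fl/fl cells at day 1, and at 5.35 and 5.10 in del/del and 5.33 and 5.23 in fl/fl cells at day 5 (rescaled log2 RPM). At day 8 it was below all of these in all 4 libraries. Pdk1 fell by 1.54 ± 0.24 in fl/fl cells (adjusted p = 0.00735, and 0.0879 without fl/fl day 5 replicate 1), its change in del/del cells was -0.56 ± 0.24 (adjusted p = 0.152), and the difference between these changes was not called (0.98 ± 0.34, adjusted p = 0.334). Vegfa and Egln1 rose in del/del cells by 0.84 ± 0.24 and 1.14 ± 0.31 (adjusted p = 0.0415 and 0.0357) and moved by 0.08 and 0.33 in fl/fl cells, not called. Without del/del day 8 replicate 2 both calls in del/del cells were lost (0.57 and 0.94, adjusted p = 0.316 and 0.240). Hk1 rose by 0.80 ± 0.19 in fl/fl cells (adjusted p = 0.0345, and 0.246 without fl/fl day 5 replicate 1) and moved by 0.56 ± 0.19 in del/del cells (adjusted p = 0.0797). Hif1a stood at 5.51 and 5.43 in del/del and 5.63 and 5.57 in fl/fl cells at day 1 and at 5.28 and 5.17 in del/del and 5.58 and 5.51 in fl/fl cells at day 5, and was called in no comparison.

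The common paralogs of the respiratory chain isoforms were not called at day 8. Cox4i1, the usual subunit 4, stood at 5.02 and 5.07 in del/del and 5.33 and 6.07 in fl/fl cells (rescaled log2 RPM), and Ndufa4 at 4.57 and 4.56 in del/del and 4.49 and 5.51 in fl/fl cells. Differences were -0.65 ± 0.23 and -0.43 ± 0.32 (limma adjusted p = 0.0775 and 0.352). Per exon base the log2 ratio of Cox4i2 to Cox4i1 was -1.66 and -1.33 in del/del cells at day 8. In fl/fl cells it was -9.40 and -8.03, with 0.9 reads entered for the 0 reads of Cox4i2. The ratio of Ndufa4l2 to Ndufa4 was -4.17 and -2.83 in del/del and -9.20 and -8.12 in fl/fl cells at day 8, entered the same way. Cox4i2 and Ndufa4l2 shared 0% of their 50-base stretches with other genes' transcripts.

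Further genes of these pathways were mixed at day 8. Of 21 tested further glycolysis genes 4 were higher and 1 was lower by limma, with a median of 0.18, where 7.95% of all tested genes were higher and 7.05% lower. They include the muscle enolase Eno3 (2.86 ± 0.45), the pyruvate dehydrogenase phosphatase Pdp1 (1.41 ± 0.36), the lactate exporter Slc16a3 (0.75 ± 0.21) and, lower, Pfkfb2 (-1.36 ± 0.27). Of 10 tested further genes of the HIF pathway 2 were higher and 1 was lower (median 0.16), namely Hif3a (1.46 ± 0.37), Arnt2 (3.37 ± 0.88) and Cited2, which limits HIF activity (-0.99 ± 0.24). Epas1, the second HIF alpha subunit, had 55 and 1167 reads in del/del and 1233 and 173 in fl/fl cells and was not called (adjusted p = 0.160). Of 32 tested further hypoxia targets 2 were higher and 3 lower (median -0.09), among them the globin Cygb (5.22 ± 0.76), Selenbp1 (2.54 ± 0.70), the haem oxygenase Hmox1 (-1.74 ± 0.36) and Ndrg1 (-2.04 ± 0.45). Cygb and Selenbp1 passed the filter on low values only through del/del day 8 libraries, where they are high. Their calls add no separate support to the count of higher targets. The counts of further hypoxia targets lie near the shares of all tested genes in both directions, and no test of these lists was made. Without fl/fl day 8 replicate 2, 1 of the further glycolysis genes was called, 0 of the HIF pathway and 1 of the further hypoxia targets, each by limma (4, 3 and 6 at an unadjusted p under 0.05), against 2.13% of all tested genes.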

How the data were processed

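RNA was sequenced in 12 libraries. The submitters' processing notes name bcl2fastq, TopHat2 2.0.12, edgeR and mm10; the sources used here give neither their roles nor the counting rule. The authors deposited log2 RPM. Taken out of the log2, 100% of values were whole multiples of 1 step per library within 0.02 reads, with 0 reads entered as 0.9, so reads were recovered (1.51 M to 8.67 M in genes per library). Each library was rescaled by its median log ratio to the mean library. The 14063 genes whose deposited log2 value exceeded 0 in 2 or more libraries were tested with limma 3.58.1 (R 4.3.3) on 6 group means, with a trend of the variance on the mean, and Benjamini-Hochberg adjustment over all of them at 0.05. Coordinates are those deposited; exon lengths, overlaps and shared 50-base stretches come from GENCODE M21, and promoters from RefSeq (GRCm38.p6).

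The members, lists, rescaling and tests were chosen with earlier results of these data known. Values in every library are given for members called between genotypes, for Hif1a, Gapdh, Pdk1 and Vegfa, and for the 3 members with the largest change in each comparison of days; of each further list up to 4 genes with the smallest day 8 p are named. Alternatives were the deposited scale, voom on the recovered reads (935 genes higher and 910 lower at day 8), a replicate block, 2 other filters, another entry for 0 reads, removal of a trend with read density, and leaving out each library. Same-numbered libraries come from the same line, per the labels' protocols; their deviations from the group means correlated by -0.15 to 0.24 over 15 pairs of groups. Floors cover counting error only.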

Additional observations from a re-analysis of the deposited data

How the results depend on the processing

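With 2 libraries per group and 1 control library of 1.51 M gene reads, the day 8 counts have little depth behind them, and genes with 0 reads can only be bounded. Of 34 members, voom called 6 at day 8 and 13 from day 1 to day 5 in del/del cells; the deposited scale called 1 in the mean over days, 3 from day 1 to day 5 in fl/fl cells and 1 from day 5 to day 8 in fl/fl cells; and without a filter 1 was called from day 5 to day 8 in fl/fl cells. Among the calls, the direction turned on the deposited scale for Hk1 (0.24) and Ero1l (0.0177) at day 8. It also turned for Hk1 (-0.0738) and Ero1l (-0.34) from day 1 to day 5 in del/del cells. The median gene moved by 0.90 and -0.88 in these comparisons. The cause of the other moves was not tested. The planned edgeR test on recovered reads is not reported here. The stricter filter on low values tested 30 members and left out Cox4i2, Ndufa4l2, Adm and Car9. It therefore gave no check on the largest day 8 differences. Every call it could test stayed in place, with 4 members higher and 3 lower at day 8.

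With a replicate block 7 members were called at day 8 (5 higher, 2 lower), 9 from day 1 to day 5 in del/del and 12 in fl/fl cells, 6 and 3 from day 5 to day 8, and 0 elsewhere; apart from the calls given with the results, the block ended no call of a member.

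Leaving out 1 library at a time gave 0 to 0 members called at day 1, 0 to 2 at day 5, 0 to 21 at day 8, 0 to 16 in the mean over days, 0 to 1 and 0 to 14 in the changes of the genotype difference by day 5 and by day 8, 6 to 19 in del/del and 7 to 16 in fl/fl cells from day 1 to day 5, and 2 to 13 in del/del and 0 to 15 in fl/fl cells from day 5 to day 8. Omitting a day 1 or day 5 library, which enters the day 8 test through the shared spread and the rescaling, gave 4 to 14 at day 8. The day 8 call held without each of 11 of 12 libraries for Cox4i2, 9 for Ero1l, 8 for Pdk1 and Ndufa4l2, 7 for Aldoc, 5 for Slc2a1 and Vegfa, and 3 for Adm, Hk1 and Pfkm.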
